A study of Mus musculus with 80 samples.

Results

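Cartpt encodes the precursor of CART (cocaine- and amphetamine-regulated transcript) peptides. It was followed with the 2 probes that the array annotation assigns to it, of 21244 probes in all, and as 1 of 11381 tested genes. The gene was selected on the values of these same arrays, because its level was much higher on the injected side after kainate at all days. Its levels by group and its differences between kainate and sham are therefore given as a description, without a test, and support nothing.

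CART is made as a prepropeptide, cut by prohormone convertases and stored in dense-core vesicles, from which neurons release it as a neuropeptide. It is known best from the hypothalamus, where it lowers food intake, and from the nucleus accumbens, and in the hippocampus it is found in cells of the dentate gyrus. Transcription of Cartpt is known to respond to cyclic AMP through the transcription factor CREB, which binds a cAMP response element upstream of the gene.

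The 80 arrays were Illumina BeadChips hybridised with biotin-labelled total RNA of whole hippocampus. They came from 40 male mice of strain C57Bl/6J, aged 12 weeks at the time of surgery, with 1 array of the injected side (IL) and 1 of the uninjected side (CL) of each animal. Kainate animals (KA) received 50 nl of 20 mM kainic acid, an agonist of kainate-type glutamate receptors, in saline, injected into the right dorsal hippocampus through a burr hole in the skull. Sham animals had the same operation and received the same volume of saline alone, so all groups carry the surgery and the injection. Hippocampi were taken at day 7, 28 or 60 after surgery from 8, 9 and 9 KA animals and from 4, 5 and 5 sham animals, which gives 12 groups of side, treatment and day. All groups are unmodified animals of 1 strain and 1 sex, and no group without surgery was analysed here. The animals' separate identity numbers make them separate replicates.

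An array detected 46.8% to 66.9% of its probes. The arrays lay on 11 slides, of which slides 9 and 4 were the dimmest, with a mean of 51.4% and 56.8% of probes detected. Groups separated along principal component 1 (16.4% of the variance, R² of the 12 groups = 0.80) and slides along component 2 (9.8%, R² of the slide = 0.89). Levels below are log2 intensities after background correction and quantile normalization. The number of arrays limits their precision.

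Cartpt lies on chromosome 13 of the mouse, at chr13:99898483-99910179 of GRCm38.p6, on the minus strand. The bases before its RefSeq start are shown because they hold the element through which CREB is known to act on the gene. The stretch chr13:99900684-99900933, minus strand, which lies inside the annotated gene span, is printed 5′ to 3′ from RefSeq GRCm38.p6, with the match to the cAMP response element TGACGTCA in capitals.
Cartpt: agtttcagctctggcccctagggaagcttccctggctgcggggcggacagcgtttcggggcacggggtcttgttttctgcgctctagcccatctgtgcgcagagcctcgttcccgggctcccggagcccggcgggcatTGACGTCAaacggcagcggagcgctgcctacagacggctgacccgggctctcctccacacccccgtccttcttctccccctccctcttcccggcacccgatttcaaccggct
The match occupies positions -112 to -105, counted from the RefSeq start, with no position 0. The 5 motifs named here were searched on both strands of the 300 bases from 250 before to 50 after the start.

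The Cartpt window held 1 full cAMP response element, and 1.79% of 32851 RefSeq promoter windows of that length held at least 1. It held no AP-1 site TGACTCA, the site of Fos and Jun proteins, which 5.20% of windows held. It also held 1 GC box GGGCGG at -210 to -205 (35.7% of windows), 1 E-box CANNTG at -161 to -156 (72.3%) and 1 TATAA at -1 to 4 (24.9%). None of these matches overlaps another. A match describes these letters only and is not a measured site, and binding was not measured here.

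Of the genes listed below, 13 neuropeptide genes and 14 processing and vesicle genes had a promoter window. The full element was present in 1 and 3 of these, against 1.79% of all windows. These 4 genes are shown with 8 bases on each side for comparison with Cartpt. They are Chgb (chr2:132781562-132781585, plus strand), Pcsk1 (chr13:75089771-75089794, plus strand), Scg2 (chr1:79440079-79440102, minus strand) and Sst (chr16:23890877-23890900, minus strand), all in GRCm38.p6 from RefSeq, with the element in capitals.
Chgb: ctgctccgTGACGTCAgggctgag
Pcsk1: ggtagatcTGACGTCAagagatgg
Scg2: tgagccggTGACGTCAgcgtggaa
Sst: tccttggcTGACGTCAgagagaga
Pcsk1, a prohormone convertase that cuts the CART precursor, was not measured by the probes used here.

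On the injected side Cartpt was higher in KA than in sham animals at all 3 days, and on the uninjected side the group means were close. The main probe, ILMN_2719755, had the higher mean of the pair and was detected on 80 of 80 arrays, shams included. The other probe, ILMN_3123063, was detected on 78 of 80, and both ran together over the 80 arrays (r = 0.996). The whole hippocampus was measured, so a difference in the number of cells that express Cartpt and a difference in its RNA per cell cannot be told apart.

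At day 7 the 8 injected hippocampi of KA animals read 13.46, 10.68, 13.49, 8.96, 12.04, 12.92, 13.36 and 6.70 (replicates 1 to 8; lowest 6.70, median 12.48, highest 13.49). The 4 injected hippocampi of sham animals read 7.38, 6.75, 7.77 and 7.20. Of the KA arrays 7 of 8 lay above every sham array, and replicate 8 lay below them all. At this day 2.66% of all genes had every KA array above every sham array.

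The group means were 11.45 ± 2.50 (SD, n = 8) in KA and 7.27 ± 0.42 (n = 4) in sham, a difference of 4.18 ± 0.72 (SE), or 18.1-fold. Without replicate 8 the difference was 4.86, and it lay between 2.73 and 6.08 within each of 3 slides with arrays of both groups. Cartpt had the second largest difference of 11381 genes.

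At day 28 the 9 injected KA hippocampi lay between 10.83 and 14.04 (median 13.30). The 5 injected sham hippocampi read 6.81, 7.87, 7.51, 7.81 and 7.16. Every KA array lay above every sham array, which held for 2.14% of all genes. Replicates 2 and 5 were the low KA arrays, at 10.83 and 11.11, and the other 7 were at 12.47 or above.

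The means at day 28 were 12.82 ± 1.17 (SD, n = 9) and 7.43 ± 0.45 (n = 5), a difference of 5.39 ± 0.65 (SE), or 41.9-fold, the largest of 11381 genes. In the deposited intensities, before any scaling, the KA arrays spanned 1861.7 to 20338.7 units and the sham arrays 86.6 to 209 units. Within each of 2 slides with arrays of both groups the difference was 5.79 and 7.23.

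At day 60 the 9 injected KA hippocampi lay between 10.56 and 12.57 (median 11.60), and the 5 injected sham hippocampi read 7.70, 7.61, 7.46, 7.34 and 6.50. All KA arrays again lay above all sham arrays, as for 1.93% of genes. The means were 11.66 ± 0.67 (SD, n = 9) and 7.32 ± 0.48 (n = 5), a difference of 4.34 ± 0.65 (SE), or 20.2-fold. It was the third largest of all genes and lay between 2.87 and 5.85 within each of 4 slides with arrays of both groups.

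**Figure D1:**
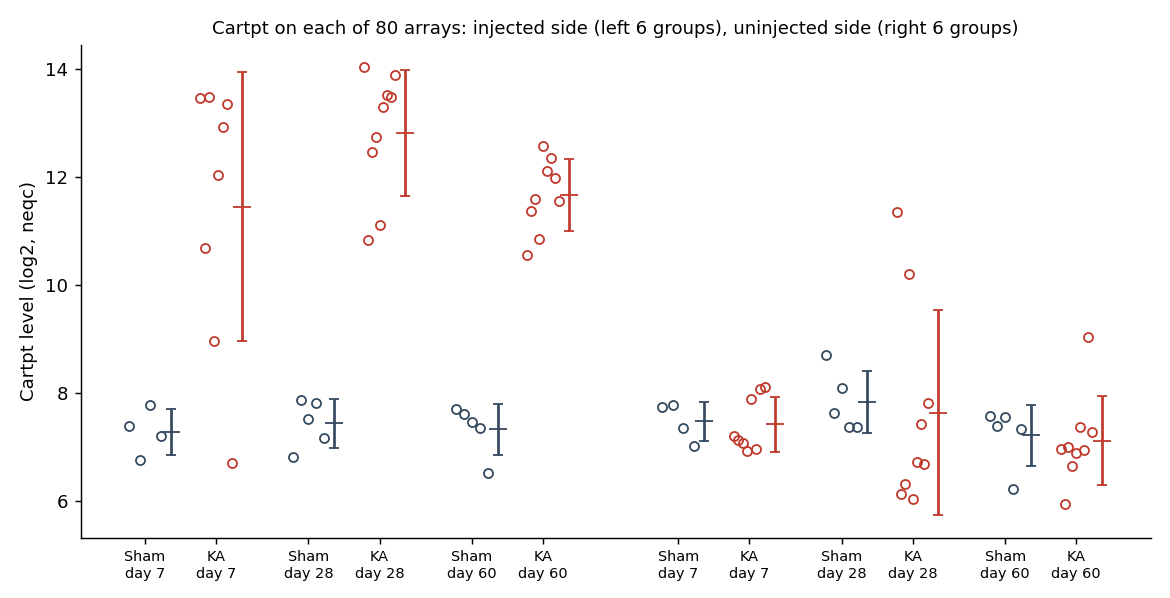
Cartpt level (log2 intensity, vertical axis) on each of the 80 arrays, by side, day and treatment, with sham in dark blue and KA in red. Points are single arrays, and the bar beside each group is its mean ± SD. Of the 26 injected-side KA arrays 25 lie above the highest sham array, at 8.70, and 1 array of day 7 lies at 6.70.

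On the uninjected side the KA group means were 7.42 ± 0.51 (SD, n = 8) at day 7, 7.63 ± 1.90 (n = 9) at day 28 and 7.12 ± 0.83 (n = 9) at day 60. The sham means were 7.47 ± 0.36 (n = 4), 7.83 ± 0.57 (n = 5) and 7.21 ± 0.57 (n = 5). KA minus sham was -0.05 ± 0.72, -0.20 ± 0.65 and -0.10 ± 0.65 (SE), each smaller than its error. The errors come from a fit with a common spread for all 12 groups, which includes the injected KA group of day 7, with an SD of 2.50. Intervals from these errors allow differences of more than 2-fold in both directions. They are not intervals of the compared groups' own spread, which were not computed. At days 7 and 60 those groups had SDs of only 0.51 and 0.36, and of 0.83 and 0.57.

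The uninjected arrays of KA animals did not all read alike. At day 28 replicates 1 and 4 stood at 11.36 and 10.20, above every sham array, and the other 7 lay between 6.03 and 7.81. Of those 7, 5 lay below all 5 sham arrays, which spanned 7.36 to 8.70, so that the KA median was 0.91 below the sham median. Replicate 1 lay inside the range of the injected KA arrays of that day (10.83 to 14.04), and replicate 4 lay below it.

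At day 60 replicate 8 stood at 9.04 while the other 8 uninjected KA arrays lay between 5.94 and 7.37 and the sham arrays between 6.22 and 7.57. At day 7 the uninjected KA arrays spanned 6.93 to 8.10 and overlapped the sham arrays, at 7.01 to 7.78. In all, 3 of 26 uninjected KA arrays lay above the highest of the 28 sham arrays. Replicate 4 of day 28 and replicate 8 of day 60 were on the dim slides 4 and 9. The sham array beside each on the same slide read 8.08 and 6.22, and the part of the slide in these levels was not tested.

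The 12 group means fell into an upper set of 3 and a lower set of 9. The injected KA groups led, in the order day 28, day 60 and day 7. Neighbours among them differed by 1.16 and 0.21, less than the larger of their SDs in both cases (1.17 and 2.50). The step from the third mean to the fourth, the uninjected sham group of day 28, was 3.62, or 1.45 times the larger SD. The other 9 means lay between 7.12 and 7.83, with steps of at most 0.20, all within the SDs.

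Paired within animals, Cartpt was higher on the injected side in 25 of 26 KA animals. The difference IL minus CL was 4.03 ± 2.96 (SD, n = 8) at day 7, 5.19 ± 1.62 (n = 9) at day 28 and 4.55 ± 0.997 (n = 9) at day 60. The exception was the animal of injected-side replicate 8 at day 7, at 6.70 against 8.07 on its uninjected side. In the 14 sham animals the difference was -0.16 ± 0.49 (SD), with the injected side higher in 6.

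**Figure D2:**
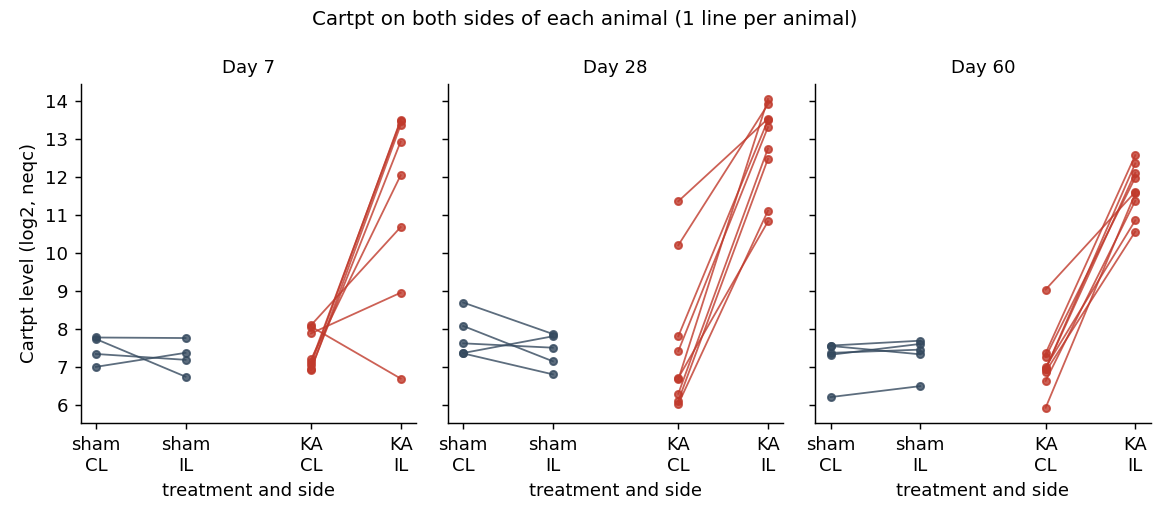
Cartpt level (log2 intensity, vertical axis) of the uninjected (CL) and injected (IL) side, 1 panel per day, with 1 line per animal, sham in dark blue and KA in red. Lines rise in 25 of 26 KA animals and run nearly level in the sham animals, where the injected side is higher in 6 of 14. The 3 KA lines that start high on the uninjected side begin at 11.36 and 10.20 (day 28) and 9.04 (day 60).

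The 2 animals with a high uninjected side at day 28 also had high injected sides, at 13.52 and 13.90, so both of their hippocampi exceeded every sham array. The animal with 9.04 at day 60 read 11.60 on its injected side, the median of its group. At day 7 the order ran the other way. The 3 highest uninjected values, 8.10, 8.07 and 7.89, belonged to the animals with the 3 lowest injected values, 10.68, 6.70 and 8.96. The correlation between the sides was -0.88 over the 8 animals of day 7, 0.53 over the 9 of day 28 and 0.13 over the 9 of day 60, as a description. With both levels centred by the slide of the injected-side array it was -0.47, 0.24 and -0.0022. Most uninjected arrays lay on another slide, so their own slide was not taken out.

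Some of the arrays that stood apart in Cartpt stood apart in other genes as well. Injected-side replicate 8 of day 7 read 8.79 in Gfap, the astrocyte filament gene, against 10.63 to 11.87 in the other 7 KA arrays and 8.05 to 9.60 in sham. Its Trh, a neuropeptide precursor, was 5.15 (sham arrays 4.78 to 5.26). C4b, at 9.53, and Gpnmb, at 8.53, lay below the other KA arrays (from 11.32 and 11.68). Its Bdnf, at 9.62, lay above the sham arrays of that day (9.02 to 9.18). So did its Fos, an immediate early gene, at 8.60 (6.06 to 7.42). In injected sham arrays of day 60 Fos was 8.01 to 10.18. On the uninjected side of the same animal Gfap was 8.25, C4b 9.13 and Gpnmb 7.82. The other KA arrays there started at 9.86, 10.47 and 8.74. The 2 high uninjected arrays of day 28 read 8.95 and 8.47 in Gfap, within the range of the other KA arrays there (8.05 to 9.52) and below the injected KA arrays (9.92 to 10.80). Their Trh, at 6.71 and 6.02, was also below the injected KA arrays of that day (7.79 to 11.53). Other genes differed between these 2 arrays. On replicate 4 the complement gene C4b, at 10.91, lay inside the range of the injected KA arrays (10.73 to 12.11) and Npy, at 12.85, above it (12.14 to 12.63), while replicate 1 lay below both ranges, at 9.55 and 11.57.

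The spread of Cartpt among KA animals was wide. Its SD of 2.50 on the injected side at day 7 was the second largest of 11381 genes, and its SD of 1.17 at day 28 ranked 8th, against a median SD of all genes of 0.25 and 0.23. At day 60 the SD of 0.67 ranked 322nd. The SD of 1.90 on the uninjected side at day 28 ranked 55th. In the 6 sham groups the SD lay between 0.36 and 0.57.

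Whether the difference between KA and sham changed from day to day on the injected side was tested with limma, which compares the KA effect at each pair of days. The effect was 1.21 ± 0.97 (SE) larger at day 28 than at day 7 (95% interval -0.69 to 3.11, adjusted p = 0.705), in a comparison where 0.264% of genes passed. From day 28 to day 60 it changed by -1.05 ± 0.92 (-2.86 to 0.76, adjusted p = 0.816), and from day 7 to day 60 by 0.16 ± 0.97 (-1.74 to 2.06, adjusted p = 0.995), where 0% (940 genes at an unadjusted p under 0.05) and 1.65% of genes passed. None of the 3 passed for Cartpt, and the intervals allow changes of more than 2-fold. Limma takes 1 spread per gene over all groups, and the Cartpt SDs ran from 0.36 to 2.50.

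A test of the KA arrays alone was added after the data were seen. Cartpt was 1.16 lower at day 60 than at day 28 (exact permutation test, two-sided, p = 0.0222, n = 9 and 9), which did not pass over the 3 pairs of days (adjusted p = 0.0665). Day 28 was 1.37 above day 7 (exact p = 0.166, n = 9 and 8), and 0.69 above it without replicate 8 (exact p = 0.363). Day 60 was 0.21 above day 7 (exact p = 0.823), and 0.47 below it without replicate 8 (exact p = 0.473), so that this direction turned without 1 array.

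Among sham animals no difference in Cartpt by side or day passed the test, in comparisons where 0% of genes (574 at an unadjusted p under 0.05) and 0.00879% passed in limma. The injected side was 0.16 lower than the uninjected side (SE 0.43, 95% interval -0.998 to 0.68, limma adjusted p = 0.981). An exact sign-flip permutation test over the 14 sham animals gave p = 0.250. Day 60 differed from day 7 by -0.11 ± 0.58 (SE, -1.24 to 1.03, limma adjusted p = 0.999), with an exact permutation p of 0.849. The lowest sham array on each side, at 6.50 and 6.22, came from the same animal of day 60, and both lay on the dim slide 9.

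Within the injected KA hippocampi, Cartpt was set against 5 other genes and against its own level on the uninjected side, with levels centred by day, two-sided permutation within days and adjustment over the 6 relations. Cartpt was higher where Gfap was higher over the 26 arrays (r = 0.80, Spearman's rho = 0.79, permutation p = 1e-05, the smallest these permutations can give, adjusted p = 6e-05). The r was 0.69 without the 2 arrays farthest from the median of the other measure, here Gfap, and 0.62 without replicate 8 of day 7. It was 0.91, 0.60 and 0.88 within days 7, 28 and 60 and 0.91 over all days with levels centred by slide.

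Cartpt also followed Bdnf, which encodes a neurotrophin made by active neurons (r = 0.74, rho = 0.78, permutation adjusted p = 0.00198 for r and 0.00012 for rho, and 0.80 without the 2 farthest arrays). For Npy, a neuropeptide of interneurons that granule cells also make after seizures, r was 0.61 and rho 0.58 (permutation adjusted p = 0.0022 and 0.00484), and r was 0.44 without the 2 farthest arrays. Within day 28 the r with Npy was -0.08, against 0.85 and 0.73 at days 7 and 60. With levels centred by slide it was 0.35 at day 28, against 0.67 and 0.55, and the difference between days was not tested. For Fos r was 0.45 and rho 0.48 (permutation adjusted p = 0.00198 and 0.0109), and r was 0.34 without the 2 farthest arrays.

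Cartpt and Trh, both encoding neuropeptide precursors, had a correlation below 0 at day 28 and above 0 at the other days. Over all 26 arrays r was 0.68 and rho 0.58 (permutation adjusted p = 0.0052 and 0.0109), 0.57 without the 2 farthest arrays and 0.48 without replicate 8. Within days 7 and 60 r was 0.99 and 0.69, and within day 28 it was -0.47. With levels centred by slide these were 0.86, 0.76 and -0.12. At day 28 the array with the lowest Trh of its group, at 7.79, read 13.30 in Cartpt, and the array with the lowest Cartpt, at 10.83, had the highest Trh, at 11.53. The difference between days was not tested. The relation of the Cartpt level on the uninjected side to that on the injected side did not pass over 26 animals (r = 0.05, rho = 0.02, permutation adjusted p = 0.782 and 0.927, r = -0.13 without the 2 farthest arrays).

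**Figure D3:**
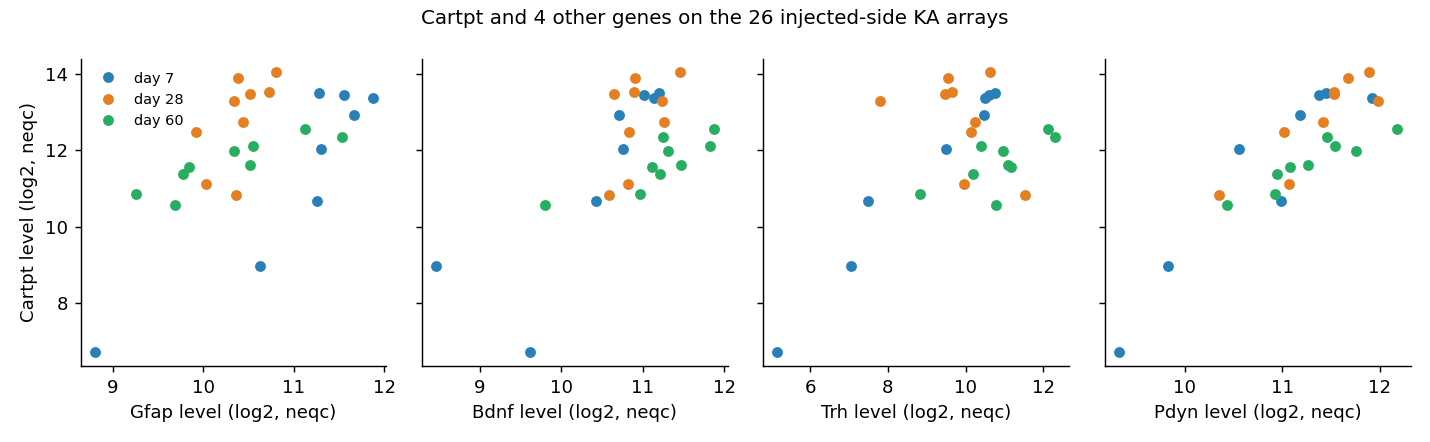
Cartpt level (vertical axis) against the level of Gfap, Bdnf, Trh and Pdyn (horizontal axes), all as log2 intensities, on the 26 injected-side KA arrays coloured by day. Points are single arrays. Cartpt increases with Pdyn at all 3 days (r = 0.94, 0.88 and 0.92 at days 7, 28 and 60), while the day 28 points of Trh run downward (r = -0.47), and the lowest point in each panel is replicate 8 of day 7.

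The genes whose levels ran closest to Cartpt were ranked by Pearson's r, as a description. These points share slides and animals. Over all 80 arrays, r carries the gap between the injected KA arrays and the rest, and its median over 11380 genes was -0.05. The 8 nearest genes were Trh (0.90), the neurotrophic factor gene Gdnf (0.89), the matricellular protein gene Ccn5 (0.89), Dennd2c (0.87), the chitinase-like protein gene Chil1 (0.86), Rhbdf1 (0.85), the MAP kinase phosphatase gene Dusp2 (0.85) and the small heat shock protein gene Hspb3 (0.85). Of the 6 of these with a promoter window, 0 held the full cAMP response element that Cartpt has. Several of the 8 genes were rarely detected on the 4, 5 and 5 injected sham arrays of days 7, 28 and 60. Gdnf was detected on 0, 0 and 0, Ccn5 and Dennd2c on 0, 0 and 1, and Hspb3 on 2, 0 and 1. Chil1 and Rhbdf1 were detected on all of them.

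Within the 26 injected KA arrays, centred by day, Cartpt lay nearest to Pdyn, the precursor of dynorphins (r = 0.89). Next came the myosin chaperone gene Unc45b (0.88), the protease gene Klk6 (0.88), the tetraspanin gene Cd9 (0.88) and Scg2, the precursor of secretoneurin (0.88). Without replicate 8 of day 7, the order was led by Scg2 (0.91), Hspb3 (0.87) and Pdyn (0.86), and Trh had rank 461. Of the 5 nearest genes, all with a promoter window, 1, Scg2, had the full cAMP response element (1.79% of all windows). The 5 genes that ran most opposite to Cartpt were Azin1 (-0.80), Dhdds (-0.77), the ribosomal protein gene Rps15a (-0.74), Itpka, an inositol trisphosphate kinase of dendritic spines (-0.73), and the guidance receptor gene Robo1 (-0.73).

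Pdyn on the injected side lay between 9.32 and 11.92 at day 7 in KA (median 11.08) and between 8.96 and 9.57 in sham. The array with the lowest Pdyn was the one with the lowest Cartpt, replicate 8. At day 28 Pdyn lay between 10.35 and 11.98 in KA, above every sham array, and here too the lowest array was the one with the lowest Cartpt.

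Cartpt was also compared with other neuropeptide genes. Of 17, 14 were tested, and Crh and Pnoc did not pass the filter on dim probes. On the injected side 3 were higher and 2 lower in KA at day 7, 4 and 1 at day 28, and 5 and 2 at day 60 (limma, adjusted p under 0.05). Over all genes 7.47%, 4.43% and 3.37% were higher and 3.03%, 1.43% and 1.31% lower. The median difference of the 14 was -0.13, 0.33 and 0.10 (all genes -0.04, -0.03 and -0.01), far from the Cartpt differences of 4.18, 5.39 and 4.34.

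Trh rose by 3.90 ± 0.61, 4.36 ± 0.56 and 5.91 ± 0.56 (SE) at days 7, 28 and 60, and Pdyn by 1.55 ± 0.37, 2.30 ± 0.34 and 1.43 ± 0.34. Trh was detected on all injected KA arrays and on 2 of 4, 4 of 5 and 2 of 5 sham arrays. Gal, the galanin precursor, rose by 1.46 ± 0.48, 1.43 ± 0.44 and 2.37 ± 0.44, with detection on 3 of 4, 4 of 5 and 3 of 5 sham arrays. The call on Gal was lost at day 7 without any 1 of KA replicates 1, 3, 5, 6 and 7 or sham replicates 1, 3 and 4 (adjusted p up to 0.164), and at day 28 without any 1 of KA replicates 1, 2 and 4 or sham replicates 4 and 5 (up to 0.114). Cartpt was above every sham array in the same comparisons, replicate 8 of day 7 excepted.

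Npy rose by 1.14 ± 0.24 and 1.11 ± 0.24 at days 28 and 60, and Adcyap1, the precursor of the cyclic AMP-raising peptide PACAP, by 1.01 ± 0.25 at day 60 (adjusted p = 0.0712 without sham replicate 1). Opposite to Cartpt, Cort, the cortistatin precursor of interneurons, fell at all 3 days (-1.11 ± 0.23, -1.15 ± 0.21 and -1.03 ± 0.21). Tac1, the substance P precursor, fell by 0.84 ± 0.25 at day 7 (adjusted p = 0.0922 without sham replicate 1). Nts, the neurotensin precursor, fell by 0.76 ± 0.21 at day 60 (adjusted p up to 0.218 without sham replicate 3 or 5), with detection on 2 of 9 KA and 4 of 5 sham arrays. Sst, which shares the full element with Cartpt, did not pass, at -0.57 ± 0.40, 0.68 ± 0.37 and -0.22 ± 0.37.

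On the uninjected side 0, 1 and 0 of the 14 peptide genes were higher at days 7, 28 and 60 (1.49%, 0.0264% and 0.0527% of all genes) and 0, 1 and 0 lower (0.0439%, 0.0615% and 0.00879%). At day 28 Npy rose by 1.06 ± 0.24 and Cort fell by 1.08 ± 0.21, while Cartpt differed by -0.20 ± 0.65. The call on Npy was lost without any 1 of KA replicates 2, 3, 4, 5, 6 and 9 or sham replicate 3 (adjusted p up to 0.109), and that on Cort without sham replicate 3 (0.107). Trh there differed by 0.87 ± 0.61, -0.85 ± 0.56 and 0.47 ± 0.56 at the 3 days, which did not pass. Gal there was 1.07 ± 0.48, 1.67 ± 0.44 and 1.35 ± 0.44 higher, also without passing (limma adjusted p = 0.477, 0.0735 and 0.381).

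**Figure D4:**
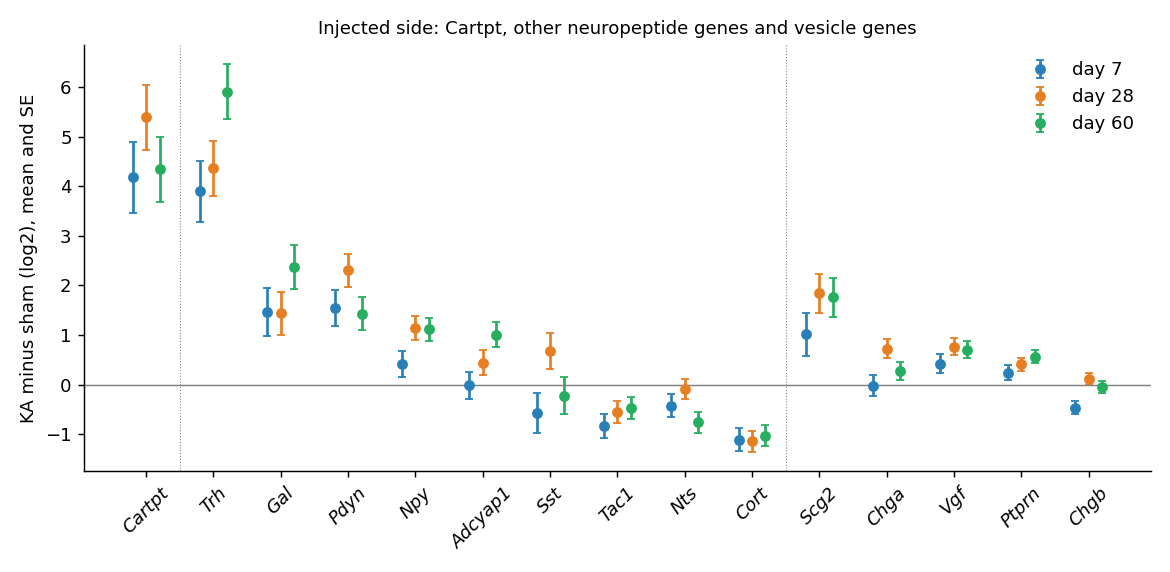
KA minus sham on the injected side (log2, vertical axis, mean ± SE) at days 7, 28 and 60 for Cartpt, for 9 other neuropeptide genes and for 5 vesicle genes, separated by dotted lines. Cartpt, at 4.18, 5.39 and 4.34, and Trh, at 3.90, 4.36 and 5.91, stand above the others. Cort lies near -1 at all 3 days, and Scg2 is the highest of the vesicle genes shown.

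CART peptides need processing enzymes and vesicles, and 17 such genes were listed, of which 14 were tested. Pcsk1, Pcsk2 and Cpe, the enzymes that cut and trim the precursor, and Gpr160, a receptor proposed for CART, were not measured by the probes used here. On the injected side 0, 3 and 3 of the 14 were higher at days 7, 28 and 60, and 1, 0 and 0 lower, with median differences of -0.01, 0.24 and 0.10. Over all genes 7.47%, 4.43% and 3.37% were higher and 3.03%, 1.43% and 1.31% lower. Without the 2 dim slides the counts at day 7 were 3 higher and 3 lower. Those slides held no day 7 array, so only the error, which draws on all groups, changed. None passed on the uninjected side, where the medians were 0.02, -0.01 and -0.02.

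Scg2, the vesicle gene nearest to Cartpt within the injected KA arrays, rose on that side by 1.84 ± 0.40 at day 28 and 1.76 ± 0.40 at day 60. At day 7 it was 1.01 ± 0.43 higher without passing (adjusted p = 0.142). Vgf, a secreted granin-like precursor, rose by 0.77 ± 0.17 and 0.70 ± 0.17 at days 28 and 60, the latter not with median scaling (adjusted p = 0.131). Chga, chromogranin A, rose by 0.73 ± 0.19 at day 28 (adjusted p = 0.107 without sham replicate 4 and 0.439 without the 2 dim slides), and Ptprn, a vesicle membrane protein gene, by 0.56 ± 0.13 at day 60 (0.0979 with median scaling). Chgb, chromogranin B, which shares the full element with Cartpt, fell by 0.46 ± 0.13 at day 7 (adjusted p = 0.0563 without sham replicate 4 and 0.194 with median scaling). Pam, which amidates many peptides, differed by 0.00 ± 0.25, 0.07 ± 0.23 and 0.62 ± 0.23 and did not pass. On the uninjected side at day 28 Scg2 was 1.62 ± 0.40 higher without passing (limma adjusted p = 0.0584), where Cartpt differed by -0.20 ± 0.65.

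Of 12 tested genes of the cyclic AMP and CREB pathway, which is known to drive Cartpt, 0 were higher at any day on the injected side and 1, 0 and 0 lower at days 7, 28 and 60. With 7.47%, 4.43% and 3.37% of all genes higher and 3.03%, 1.43% and 1.31% lower, these counts lie near the shares over all genes. Without some single arrays 1 was higher at day 28. Their median difference was -0.15, -0.11 and 0.03. Creb1 fell by 0.50 ± 0.15 at day 7, a call lost without sham replicate 3 or 4 (adjusted p up to 0.130) and with the mean of its probes (0.199). Crem, which encodes activators and repressors at the same element, differed by 0.33 ± 0.24, 0.32 ± 0.22 and 0.27 ± 0.22 and did not pass. None of the 12 passed on the uninjected side.

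Of 9 tested activity-induced transcription factor genes, 3, 0 and 0 were higher at days 7, 28 and 60 and 0 lower on the injected side (7.47%, 4.43% and 3.37% of all genes higher), while Cartpt was 4.18, 5.39 and 4.34 higher. The difference between these courses was not tested. Fos rose by 2.29 ± 0.53, Npas4, a neuronal activity factor, by 1.70 ± 0.47 (adjusted p = 0.0744 without sham replicate 4), and Atf3, a stress factor that was not well above background in sham, was at least 1.52-fold higher at day 7 (adjusted p = 0.000205). Fos in injected sham hippocampi lay between 6.06 and 7.42 at day 7 and between 8.01 and 10.18 at days 28 and 60. Fosb (0.62 ± 0.41) and Junb (0.85 ± 0.30, adjusted p = 0.0544) did not pass at day 7.

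Bdnf rose by 1.33 ± 0.33, 1.59 ± 0.30 and 1.64 ± 0.30 at days 7, 28 and 60 and Gfap by 2.45 ± 0.38, 2.45 ± 0.34 and 2.12 ± 0.34 on the injected side. Unlike Cartpt, Gfap also rose on the uninjected side at day 7, by 2.01 ± 0.38 (adjusted p = 0.000449), where Cartpt differed by -0.05 ± 0.72. The difference between these responses was not tested.

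Markers of cells that could carry Cartpt, and of neighbouring tissue where it is abundant, were read beside it. Of 3 tested dentate granule cell markers, Prox1 and Trpc6 rose at day 28, by 0.96 ± 0.25 and 0.70 ± 0.21, and none at days 7 and 60 (4.43% of all genes higher at day 28). The third, C1ql2, differed by -0.34 ± 0.34, -0.52 ± 0.31 and -0.41 ± 0.31 and did not pass. Prox1 was lost without the 2 dim slides and with the mean of its probes (adjusted p up to 0.115), and Trpc6 without the dim slides (0.251) or any 1 of KA replicates 1, 5, 6 and 9 or sham replicates 4 and 5 (up to 0.115). Of 2 mossy cell and 5 pan-neuronal markers none passed at any day, while Cartpt was 4.18 to 5.39 higher. Without the dim slides, which held no day 7 array, 3 pan-neuronal markers passed as lower at day 7, their differences being unchanged. Of all genes, 7.47%, 4.43% and 3.37% were higher at days 7, 28 and 60, and 3.03%, 1.43% and 1.31% lower.

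Of 7 pyramidal cell markers 1, 1 and 2 fell at days 7, 28 and 60 (3.03%, 1.43% and 1.31% of all genes lower). They were Mpped1 at days 7 and 28 (-0.57 ± 0.17 and -0.58 ± 0.15) and Pou3f1 and Iyd at day 60 (-1.01 ± 0.20 and -0.81 ± 0.24, Iyd with detection on 3 of 9 KA and 4 of 5 sham arrays). Mpped1 was lost at day 7 without sham replicate 3 (adjusted p = 0.0602) and with median scaling (0.0909) and at day 28 with median scaling (0.546) and without the dim slides (0.123), and Iyd without any 1 of KA replicates 1 and 7 or sham replicates 1, 3, 4 and 5 (up to 0.156). Of 7 interneuron markers 1, the serotonin receptor gene Htr3a, fell at day 7 (-1.04 ± 0.24, with 3.03% of all genes lower). Glial markers also rose on the injected side, 4, 3 and 2 of 5 for astrocytes and 4, 2 and 0 of 4 for microglia at days 7, 28 and 60 (7.47%, 4.43% and 3.37% of all genes). The astrocyte count at day 7 was 2 with median scaling, and the microglia count was 2 without sham replicate 4. At day 7 on the uninjected side, where Cartpt differed by -0.05 ± 0.72, 1 of 5 astrocyte markers (Gfap) and 2 of 4 microglia markers (Aif1 and Tmem119) rose as well (1.49% of all genes). The astrocyte score, the mean deviation of the 5 markers from their means, ran from -0.32 to 1.19, 0.13 to 0.92 and -0.07 to 0.69 in the injected KA groups and from -0.99 to -0.14 in the injected sham groups. The microglia score on that side ran from -0.12 to 1.73, -0.08 to 1.21 and -0.52 to 0.91 in KA and from -0.75 to -0.04 in sham. The part of these cells in the Cartpt level was not tested.

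Markers of tissue outside the hippocampus were read as scores in the same way. On the injected side 7.47%, 4.43% and 3.37% of all genes were higher at days 7, 28 and 60, and 3.03%, 1.43% and 1.31% lower. Of 8 hypothalamic markers none rose and 1, Pmch, fell at day 60 (-1.06 ± 0.25, adjusted p = 0.0821 without sham replicate 5, detected on 4 of 9 KA and 4 of 5 sham arrays). Their score lay between -0.30 and 0.67 in the injected KA arrays and between -0.24 and 0.47 in the injected sham arrays, and Ghrh was detected on none of the KA arrays. Its correlation with Cartpt over the 26 arrays was -0.17, and the array with the highest score, 0.67, had a Cartpt level of 10.68.

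Of 3 tested striatal markers the dopamine receptor gene Drd1 rose, by 0.75 ± 0.24 at day 28 and 1.51 ± 0.24 at day 60. The former was lost without any 1 of 10 arrays of that day and side (KA replicates 1, 2, 3, 4, 7 and 9 and sham replicates 1, 3, 4 and 5, adjusted p up to 0.137). It also rose on the uninjected side at day 60, by 1.23 ± 0.24, a call lost without sham replicate 4 (adjusted p = 0.176) and without the dim slides (0.572), where Cartpt differed by -0.10 ± 0.65. The striatal score ran from -0.35 to 0.87 in KA and from -0.97 to 0.26 in sham, with Gpr6 detected on none of the injected KA arrays. Of 8 thalamic and habenular markers Gpr151 rose at day 28 (at least 1.72-fold, adjusted p = 0.0203, up to 0.0613 without KA replicate 6 or sham replicate 4) and Lhx9 passed as lower at day 60 (adjusted p = 0.0131, 0.171 without sham replicate 1). No fold is given for Lhx9, which was not well above background on any KA array and was detected on 2 of 5 sham arrays of that day. Of 5 choroid plexus markers none passed. The shares over all genes on the injected side were 7.47%, 4.43% and 3.37% higher and 3.03%, 1.43% and 1.31% lower. On the uninjected side at day 60, 0.0527% of genes were higher. Over the 26 injected KA arrays the correlation of the striatal, thalamic and choroid plexus scores with Cartpt was 0.08, -0.01 and 0.12.

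The genes beside Cartpt on chromosome 13 were read in the same comparisons. The 3 nearest tested genes on each side were Zfp366, Mrps27 and Map1b at lower coordinates and Serf1, Smn1 and Naip2 at higher ones. In limma 0 of the 6 passed in any of the 6 comparisons of KA with sham. Per comparison and direction 0.00879% to 7.47% of all genes passed, so a count of 0 of 6 lies near these shares. At day 28 on the injected side, where Cartpt differed by 5.39, Map1b differed by -0.19 ± 0.27 and Serf1 by -0.49 ± 0.30.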

How the data were processed

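Messenger RNA was measured on 80 single-colour bead arrays. The authors deposited a background-subtracted bead intensity per probe, not scaled between arrays, with a detection p-value against negative control beads, and a series matrix of log2 values with the same distribution on all arrays. Tools named in the submitters' processing notes are BeadStudio, GenomeStudio and Partek, with no versions. Of 25697 lines of the intensity table, 21244 were used; the other 4453 have columns shifted against the header. A detection column lying 1 line off in 1 array was shifted back. The annotation gives 1 symbol for 19889 probes.

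Intensities were corrected and quantile normalized with neqc (offset 16) in limma 3.58.1 under R 4.3.3 with statmod 1.5.0. Probes with detection p under 0.05 on at least 4 arrays were kept (16646, or 11381 genes, each read from its brightest probe). The limma fit had a mean for each of the 12 groups and a random block for the animal (correlation 0.0787), with Benjamini-Hochberg adjustment over all genes and two-sided tests, and was checked on simulated data. Where no array of the sham group detected a gene, the fold is given against the background level as "at least". Python 3.11.15 with scipy 1.17.1 ran the permutation tests (100000 draws for the relations). Arrays were paired by the identity number of the animal. The replicate numbers do not pair them: 6 of 40 animals carry the same number on both sides. The design text counts the day 60 sham groups as KA; the sample labels, used here, call them sham.

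Members, gene lists (15, with 130 genes) and tests were chosen with earlier results of these data known. Named genes are up to 4 passing members per list and comparison with the lowest adjusted p (astrocyte and microglia lists are given by count), a fixed set (Gpr160, Pcsk1, Pcsk2, Cpe, Pam, Creb1, Crem, Fos, Fosb, Junb, Trh, Npy, Bdnf, Gfap), 3 neighbours on each side, and the genes nearest to and most opposite to Cartpt; other named genes were picked after their values were seen. Promoter windows are those of RefSeq GRCm38.p6. Alternatives are listed in the closing part.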

Additional observations from a re-analysis of the deposited data

Results flagged for a closer look

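In each of the 12 groups the gap of the highest and of the lowest Cartpt array to its neighbour was set against the range of the group, at a limit that chance passes in about 1 in 20 groups. It was passed in 2 groups. On the uninjected side of KA animals at day 60, replicate 8 read 9.04, with the other 8 arrays between 5.94 and 7.37. On the uninjected side of sham animals at day 60, replicate 4 read 6.22, with the other 4 arrays between 7.33 and 7.57. Both arrays were on slide 9, the slide with the fewest detected probes, and their deposited intensities were 142.7 and 22.4. The deposited intensities of the 2 groups ran from 40.6 to 191.7 and from 22.4 to 210.4. The first array was therefore not the highest of its group before normalization. Its Trh was 7.70, against 4.73 to 5.72 on the other 8 arrays. The part of the slide in these values was not tested.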

How the results depend on the processing

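Results were recomputed without background correction, with median scaling, from the deposited series matrix, without the filter, with a filter that asked for a detection p below 0.01 on 40 or more arrays, with the mean of the kept probes, without the animal block, with the replicate number or the slide as a block, without the 2 dim slides, and without each of the 80 arrays in turn. The other Cartpt probe and the tests of KA arrays alone were added after the data were seen. On the injected side the Cartpt difference between KA and sham lay between 3.92 and 4.36 at day 7, 5.09 and 5.60 at day 28 and 4.02 and 4.53 at day 60 under the settings, and between 3.88 and 4.86, 5.23 and 5.63, and 4.15 and 4.48 without single arrays. On the uninjected side it stayed within -0.66 and 0.13 in all of these, and was above 0 at day 7 with the other probe (0.13), with the mean of both probes (0.0376) and without some single arrays (at most 0.0521, 0.008 and 0.0513 at days 7, 28 and 60).

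The replicate number does not pair the arrays, and the replicate block gave 4.11, 5.24 and 4.19 on the injected side. It changed no Cartpt call. No comparison of days or of sham groups passed in limma under any setting. The change of the KA effect from day 28 to day 60 lay between -1.38 and -0.71 under the settings and between -1.29 and -0.89 without single arrays, and that from day 7 to day 28 between 0.69 and 1.49 and between 0.52 and 1.51.

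The change from day 7 to day 60 turned to -0.13 without the 2 dim slides and to -0.47 over KA arrays alone without replicate 8 of day 7. It ran from -0.52 (without that replicate) to 0.46 without single arrays, and was also below 0 without KA replicate 4 of day 7 (-0.20) or sham replicate 5 of day 60 (-0.02). The sham difference between days 60 and 7 turned to 0.12 without the dim slides and ran from -0.20 to 0.0108 without single arrays, the latter without uninjected-side replicate 4 of day 60. The sham difference between sides ran from -0.42 to -0.11 under the settings and from -0.24 to -0.09 without single arrays. The relation of Cartpt between the sides turned to -0.0834 with both levels centred by the slide of the injected-side array. Most uninjected arrays lay on another slide. The other 5 relations kept their sign and their call under median scaling, in the series matrix, with slides centred and without replicate 8. Of 52 calls on single genes other than Cartpt, 19 were lost under at least 1 setting, most often median scaling (11) and leaving out the dim slides (11), 19 were lost without at least 1 array, and 0 changed sign. Counts at day 7 on the injected side without the dim slides were 4 lower for the other peptides (2 with all arrays), 3 for interneuron markers (1), 3 for pan-neuronal markers (0) and 2 for the cyclic AMP genes (1). No day 7 array lay on the dim slides, so the day 7 differences themselves stayed the same. Only their error and adjusted p, which draw on all groups, changed. The causes of the other changes were not tested.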
